A study of Mus musculus with 16 samples.

Results

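The taxa described here are the Lachnospiraceae of mouse stool that carry any genus name other than Lachnospiraceae_NK4A136_group, or no genus name at all. They were taken from the deposited feature table by the family and genus columns alone, with no use of read numbers. They comprised 202 of the 1330 sequence features in the table (amplicon sequence variants, here ASVs, numbered by total reads), and they held 75418 of 948231 reads, or 7.95%. The family had 253 ASVs, of which the 51 of the NK4A136 group were left out. A genus name was given to 77 of the 202 ASVs, with 20 different names. The other 125 had none (67 with an empty genus and 58 called uncultured) and were summed as unclassified Lachnospiraceae, a sum of many unnamed lineages.

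The study profiled stool bacteria by amplicon sequencing of the 16S rRNA gene (regions V3 to V4). There were 16 libraries in 4 groups of 4: wild-type (WT) mice labelled healthy at time point 0, Msc knock-out (KO) mice labelled healthy at time point 0, and WT and KO mice at time point 1, when both had DSS colitis. The host gene Msc, which codes for the transcription factor musculin, is not measured by this assay. DSS, dextran sulfate sodium, injures the colon lining, and the labels spell the condition DDS-induced_col. Condition and time point changed together in every mouse group, so that they cannot be told apart. The labels give no strain, age, sex, cage or dose, so genotype and cage cannot be told apart either. They number the libraries 0 to 3 within a group without saying whether a number marks the same animal at both time points. The p-values measure the spread between these libraries only.

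Lachnospiraceae are strictly anaerobic gut Clostridia that ferment plant polysaccharides, sugars and lactate. Many of them release butyrate, the main fuel of colon epithelial cells, while others release acetate, which neighbouring species use in turn. Several labels of the family used here are codes and not genus names (A2, ASF356, GCA-900066575, the UCG and FCS020 labels), and for those no function is given.

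Libraries held 49253 to 70577 reads, and replicates of a group differed by far more than counting error (chi-square per degree of freedom 28.0 to 141). Where a group had no read of a taxon, 3 reads per library were taken as the limit that a count of 0 allows (0.00425% to 0.00609% of a library). A fold against such a group is given as "at least" that of the mean share over this limit, which covers counting error only. Tests used edgeR on the 66 genus labels or 308 ASVs of the whole table that reached 5 reads in 4 or more libraries, and adjusted p under 0.05 was the threshold. Differences on the log2 scale are given ± SE. Of the taxa described here, 19 of 21 labels and 103 of 202 ASVs passed that filter, and the 99 ASVs that did not held 9.96% of their reads. Of the 103, 3 reached 5 reads in libraries of 1 group only and so had to differ (asv18, asv433 and asv328, the last named after its values were seen), as did 18 of all 308, and their calls are among those counted. Other taxa had reads in healthy libraries only (such as Lachnospiraceae_UCG-001, A2, asv67, asv105, asv109, asv113 and asv127) or in KO libraries only (asv110). These passed the filter through the side where they were high, so their calls against the other side, and the stability of those calls, are no separate support. A pair of DSS libraries stood apart over the whole community. In WT DSS replicate 1, ASVs seen in no other library took 17.1% of reads, and in KO DSS replicate 1 the NK4A136 group took 26.2%.

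The summed share was highest in healthy WT stool and lay near 6% in both DSS groups. In healthy WT mice it was 8.16%, 12.2%, 14.5% and 13.7% in replicates 0 to 3, a mean of 12.1% ± 2.82 (SD, n = 4). In healthy KO mice it was 6.33%, 6.20%, 7.62% and 10.3%, a mean of 7.60% ± 1.89. The healthy groups overlapped, since WT replicate 0 lay below KO replicate 3. Under DSS the WT libraries held 5.35%, 5.14%, 6.58% and 5.91%, a mean of 5.75% ± 0.646, all below every healthy WT library. The KO libraries under DSS held 6.27%, 4.56%, 7.52% and 6.74%, a mean of 6.27% ± 1.25, which overlapped the healthy KO libraries. As a share of all Lachnospiraceae reads the group means were 72.0% (healthy WT), 50.1% (healthy KO), 63.8% (WT DSS) and 42.1% (KO DSS), the last with 14.8% in replicate 1.

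A single ASV held most of these taxa's reads in 3 of 4 WT DSS libraries, and a different one a smaller part of them in the KO DSS libraries. asv18, the only Anaerostipes sequence, made up 18.3%, 59.9%, 66.5% and 61.5% of these taxa's reads in WT DSS replicates 0 to 3. asv32, the only sequence of the [Eubacterium]_fissicatena_group, made up 45.9%, 21.7%, 13.7% and 15.1% in KO DSS replicates 0 to 3. Without both ASVs the summed share was 2.73% ± 1.10 in WT DSS and 4.79% ± 1.55 in KO DSS (n = 4 each), with no change to the healthy values, as neither had a read there.

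**Figure D1:**
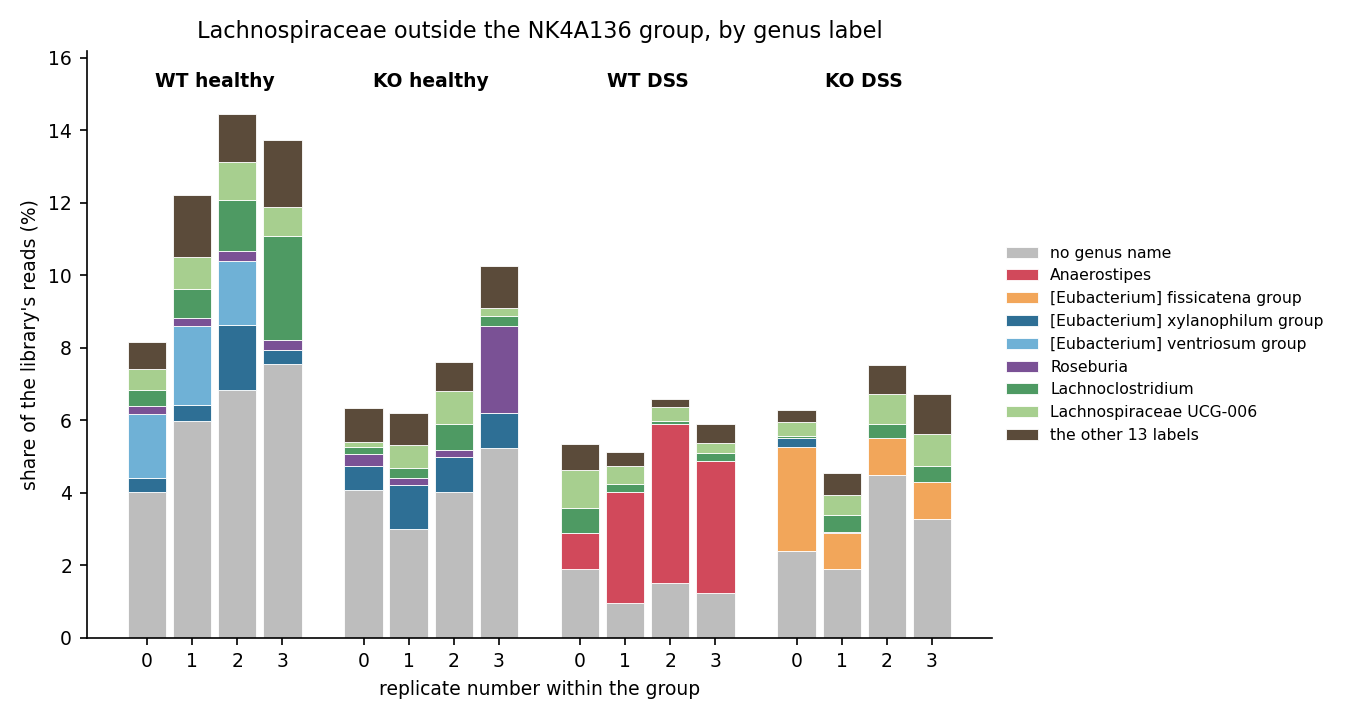
Share of each library's reads (percent) held by Lachnospiraceae outside the NK4A136 group, stacked by genus label, with 1 bar per library and the 4 groups side by side. The bars reach 8.16% to 14.5% in healthy WT mice and 5.14% to 6.58% in WT DSS mice, where Anaerostipes fills most of 3 bars, and the [Eubacterium] fissicatena group appears in every KO DSS bar.

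The number of different ASVs was lower in every DSS library than in any healthy library. Healthy WT libraries held 73, 80, 97 and 101 of the 202 ASVs and healthy KO libraries 77, 72, 77 and 95. Under DSS the WT libraries held 46, 27, 37 and 43 and the KO libraries 42, 49, 53 and 51. Thinned to 49253 reads each, the group means were 87.7, 80.1, 38.2 and 48.7 in the same order. ASVs outside the family, counted where they were seen in more than 1 library, had means of 156, 145, 126 and 145. Those of the NK4A136 group had means of 12.75, 17.25, 12 and 19.

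Of the 136 ASVs seen in healthy WT mice, 80 (58.8%) were in no WT DSS library, and of the 132 seen in healthy KO mice, 75 (56.8%) were in no KO DSS library. Outside the family these shares were 36.1% and 34.5%, and in the NK4A136 group 35.7% and 47.8%. Among ASVs of more than 1 library, 53.3% and 49.6% of the taxa described here were absent under DSS, against 28.9% and 27.8% outside the family. In the other direction, 15 ASVs seen in WT DSS mice (21.1%) were in no healthy WT library. In KO DSS mice 30 (34.5%) were in no healthy KO library. Outside the family these shares were 83.9% and 36.0%, and in the NK4A136 group 55% and 63.6%. Among ASVs of more than 1 library they were 11.1% and 21.9% for the taxa described here, against 14.2% and 24.2% outside the family. A core of 25 ASVs was present in all 8 healthy libraries, and 10 of these (40%) had no read in any of the 8 DSS libraries while 5 (20%) were in all of them. Outside the family, 2 of 56 such ASVs (3.57%) had no read under DSS and 33 (58.9%) were in all DSS libraries. In the NK4A136 group, 2 of 9 (22.2%) had no read under DSS and 2 (22.2%) were in all DSS libraries. Among ASVs of more than 1 library, these taxa held 74629 reads over 145 ASVs, against 795866 reads over 269 ASVs outside the family. A sequence with fewer reads more easily goes unseen, and the part of this was not tested. The 10 core ASVs without a read under DSS belonged to Roseburia, Marvinbryantia, A2, the [Eubacterium]_xylanophilum_group, Lachnospiraceae_UCG-001 and the unnamed lineages. These numbers describe the libraries and were not tested.

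**Figure D2:**
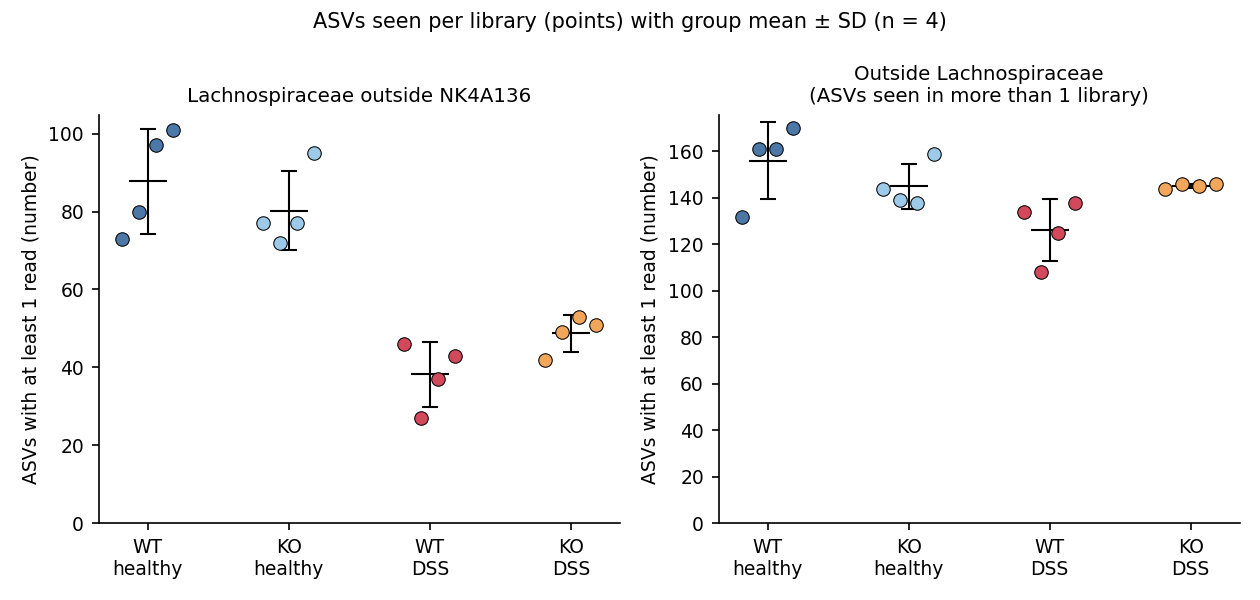
Number of ASVs with at least 1 read in each library (points) with the group mean and SD (bars, n = 4), for Lachnospiraceae outside the NK4A136 group (left) and for ASVs outside the family seen in more than 1 library (right). On the left the DSS libraries lie between 27 and 53 and the healthy ones between 72 and 101.

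DSS against healthy stool was compared within each genotype. In WT mice 6 of the 19 labels fell and 1 rose, where 12.1% of all tested labels fell and 10.6% rose. In KO mice 4 fell and 1 rose, where 13.6% of all labels fell and 21.2% rose. Roseburia, Lachnospiraceae_UCG-001, A2 and Marvinbryantia fell in both genotypes, and the [Eubacterium]_xylanophilum_group and the unnamed lineages fell in WT mice. In KO mice these last did not pass, although each passed there under some alternatives given below, and their interactions did not pass (edgeR adjusted p = 0.191 and 0.242). The label that rose was Anaerostipes in WT mice and the [Eubacterium]_fissicatena_group in KO mice. The median log2 change over the 19 labels was -1.07 in WT mice, where that of all 66 was 0.01, and 0.00 in KO mice (-0.06 with labels that had no read in a group set to their bound), where that of all 66 was 0.66.

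The butyrate formers went in opposite directions in WT mice. Anaerostipes, which makes butyrate from lactate and acetate, had no read in any healthy library and none in any KO DSS library. In WT DSS mice it held 0.979%, 3.08%, 4.38% and 3.64% of reads, a mean of 3.02% ± 1.46 (n = 4). All 4 WT DSS libraries thus stood apart from the other 12, with replicate 0 the lowest. The label and its ASV passed the filter through these 4 libraries only and so had to differ. The rise in WT mice was at least 595-fold (edgeR adjusted p = 0.000181), and it kept its call under every alternative and with any 1 library left out.

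Roseburia, a motile butyrate former with 12 ASVs, held 0.219%, 0.215%, 0.261% and 0.285% in healthy WT mice and was without a read in all 4 WT DSS libraries. Its fall there was at least 49.5-fold (edgeR adjusted p = 0.00467). In healthy KO mice it held 0.353%, 0.183%, 0.192% and 2.40%, and in KO DSS mice it was seen in replicate 1 alone, at 0.0326%. The change in KO mice was -6.34 ± 1.53 on the log2 scale (edgeR adjusted p = 0.00514). The high value of KO replicate 3 came from asv79 (2.03% there, named after its values were seen), and the call stood without that library. asv109 was the Roseburia sequence present in all 8 healthy libraries, at 0.188% to 0.224% in WT and 0.0767% to 0.137% in KO mice, and it had no read under DSS. Its genus assignment had a confidence of 0.822, and with labels kept only from a confidence of 0.9 the WT call was lost (edgeR adjusted p = 0.105).

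The [Eubacterium]_xylanophilum_group, named after a xylan-degrading butyrate former, held 0.396%, 0.424%, 1.81% and 0.390% in healthy WT mice and no read in WT DSS mice. That fall was at least 152-fold (edgeR adjusted p = 0.00834), with a healthy WT mean of 0.754% that was 0.404% without replicate 2. In healthy KO mice it held 0.655%, 1.21%, 0.971% and 0.965%, and under DSS 0.239% in replicate 0 and no read in replicates 1 to 3. The KO change of -3.78 ± 1.64 on the log2 scale did not pass (edgeR adjusted p = 0.0892), and without KO DSS replicate 0 it did (edgeR adjusted p = 4.11e-05). It also passed under 5 of 10 alternatives, with adjusted p of 0.0414 with TMMwsp factors, 0.00921 without the filter and 0.0301 with a replicate block (all edgeR), 0.0245 with DESeq2 and 0.000189 with limma. Its interaction passed without the filter (edgeR adjusted p = 0.00221) and with DESeq2 (DESeq2 adjusted p = 6.06e-16). The reads of that library were all of asv72, while asv67, present at 0.216% to 0.383% in all 8 healthy libraries, had no read in any DSS library (at least 61.5-fold lower in WT and 59.0-fold in KO mice, edgeR adjusted p = 0.000334 and 0.000182).

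Coprococcus, the remaining butyrate former that was tested, stayed at or below 0.0154% in every library and passed in no comparison. The [Eubacterium]_ventriosum_group was a single ASV, asv34, with 1.76%, 2.19% and 1.76% in healthy WT replicates 0 to 2, and it had no read in the other 13 libraries. With reads in 3 libraries it was below the filter and was not tested. Summed over the 5 butyrate-forming labels with reads (of 10 listed), the share was 2.43% ± 1.32 and 1.74% ± 1.10 in healthy WT and KO mice, and 3.03% ± 1.46 and 0.0727% ± 0.113 in WT and KO mice under DSS. In WT DSS mice nearly all of it was Anaerostipes, and the KO DSS sum was 0.0171% without replicate 0. The sum covers the listed labels only. The unnamed lineages, with a mean of 3.01% in KO DSS mice, have no function assigned and may hold further butyrate formers. For labels listed as butyrate formers outside the family (5 of 12 had reads) the corresponding sums were 1.08%, 0.753%, 0.818% and 1.18%, and none of these 5 passed for DSS against healthy. Most of each sum was Oscillibacter (0.902% in healthy WT mice). Another of the 5, UCG-009, is a code, and its place in the list is an assumption.

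Of the labels grouped as acetate formers and sugar fermenters, 5 of 10 had reads, and Marvinbryantia alone passed. Marvinbryantia, known for an acetate-forming species that uses formate, held 0.181%, 0.0650%, 0.204% and 0.0452% in healthy WT mice and 0.0132% and 0.0139% in WT DSS replicates 0 and 2, with no read in the others. This change of -3.51 ± 1.10 on the log2 scale had an edgeR adjusted p of 0.0323. It was lost without any of 5 single libraries (WT healthy replicates 0 and 2, WT DSS replicates 0, 1 and 3, highest edgeR adjusted p = 0.0752) and without the filter (0.171). In healthy KO mice it held 0.235%, 0.150%, 0.176% and 0.0954% and it had no read in KO DSS mice, at least 33.2-fold lower (edgeR adjusted p = 0.000388). Its main sequence, asv127, was present in all 8 healthy libraries and in no DSS library.

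The other labels of that list gave values that did not pass. Lachnoclostridium, a heterogeneous clostridial genus, had means of 1.38% and 0.370% in healthy WT and KO mice and 0.313% and 0.340% in WT and KO mice under DSS. Its healthy WT mean was 0.881% without replicate 3, and its WT DSS mean 0.183% without replicate 0. Blautia, a common acetate former, had means of 0.145% (0.0723% without replicate 3), 0.188%, 0.210% and 0.0779%. Acetatifactor, first described from mouse caecum, had 0.170%, 0.0639%, 0.0160% (0.00752% without replicate 0) and 0.129%. Tyzzerella had 0.0224%, 0.0324%, 0.00496% and 0.109%, the last 2 from replicates 0 and 3 alone. The list summed to 1.84% ± 1.21, 0.818% ± 0.198, 0.550% ± 0.282 and 0.656% ± 0.384.

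Among the labels that are codes, Lachnospiraceae_UCG-001 and A2 were in every healthy library and in no DSS library. They thus passed the filter through the healthy libraries alone. Lachnospiraceae_UCG-001 held 0.149%, 0.642%, 0.269% and 0.261% in healthy WT mice and 0.237%, 0.226%, 0.201% and 0.389% in healthy KO mice. Its fall was at least 66.6-fold in WT (edgeR adjusted p = 7.51e-05) and 53.2-fold in KO mice (6.67e-05). A2 held 0.0602%, 0.0386%, 0.0762% and 0.0527% in healthy WT and 0.0363%, 0.0236%, 0.0320% and 0.0504% in healthy KO mice. It fell at least 11.5-fold in WT (edgeR adjusted p = 0.000245) and 7.20-fold in KO mice (0.000279), calls that were lost when all labels were tested without the filter (0.124 and 0.245). The WT call of A2 was also lost with a replicate block (0.0630).

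asv113 and asv149, the main sequences of Lachnospiraceae_UCG-001, kept a narrow ratio to each other, with 1.41 to 1.84 reads of asv113 per read of asv149 over the 8 healthy libraries. Each is counted singly in the numbers of ASVs given here.

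The [Eubacterium]_fissicatena_group, named after a cultured species and kept in the same list as the code labels, rose in KO mice. It had no read in the 8 healthy libraries and held 2.88%, 0.989%, 1.03% and 1.02% in KO DSS mice, a mean of 1.48% ± 0.933 (n = 4). The rise in KO mice was at least 271-fold (edgeR adjusted p = 0.000292). In WT DSS mice it was seen in replicate 3 alone, with 5 reads (0.00752%). The KO DSS libraries alone were enough to bring the label and its ASV past the filter, so both were tested because they were high there.

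The remaining code labels did not pass for DSS against healthy in either genotype. Lachnospiraceae_UCG-006, the most abundant of them, had means of 0.832% and 0.468% in healthy WT and KO mice and 0.541% and 0.664% in WT and KO mice under DSS. ASF356 had means of 0.222%, 0.114%, 0.0783% and 0.183% in the same order. GCA-900066575 had 0.126% (0.0732% without replicate 3), 0.0360%, 0.0685% and 0.158% (0.0959% without replicate 3). The FCS020 group had 0.0476%, 0.00783% (0.00394% without replicate 2), 0.0148% and 0.0247%. Without replicate 0 the WT DSS means of these 3 labels were 0.0421%, 0.0363% and 0.00702%. Lachnospiraceae_UCG-010 reached at most 0.0198% in any library. Tuzzerella, in none of the lists, had means of 0.140%, 0.0416%, 0.0504% (0.0325% without replicate 0) and 0.0170% (0.00889% without replicate 2). No read of the 2 listed mucin degraders, the [Ruminococcus]_gnavus_group and [Ruminococcus]_torques_group, was present in any library.

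The unnamed lineages held 45.7% of all reads of these taxa. In healthy WT mice they took 4.03%, 5.99%, 6.84% and 7.54% of reads and in WT DSS mice 1.91%, 0.956%, 1.52% and 1.23%, with no overlap. The change was -1.45 ± 0.36 on the log2 scale (edgeR adjusted p = 0.00842). In KO mice they took 4.08%, 3.0%, 4.02% and 5.24% when healthy and 2.39%, 1.91%, 4.48% and 3.27% under DSS. These overlapped, and the change of -0.40 ± 0.35 did not pass (edgeR adjusted p = 0.362), although it passed with TMMwsp factors (0.0274) and with labels kept from a confidence of 0.9 (0.00588).

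**Figure D3:**
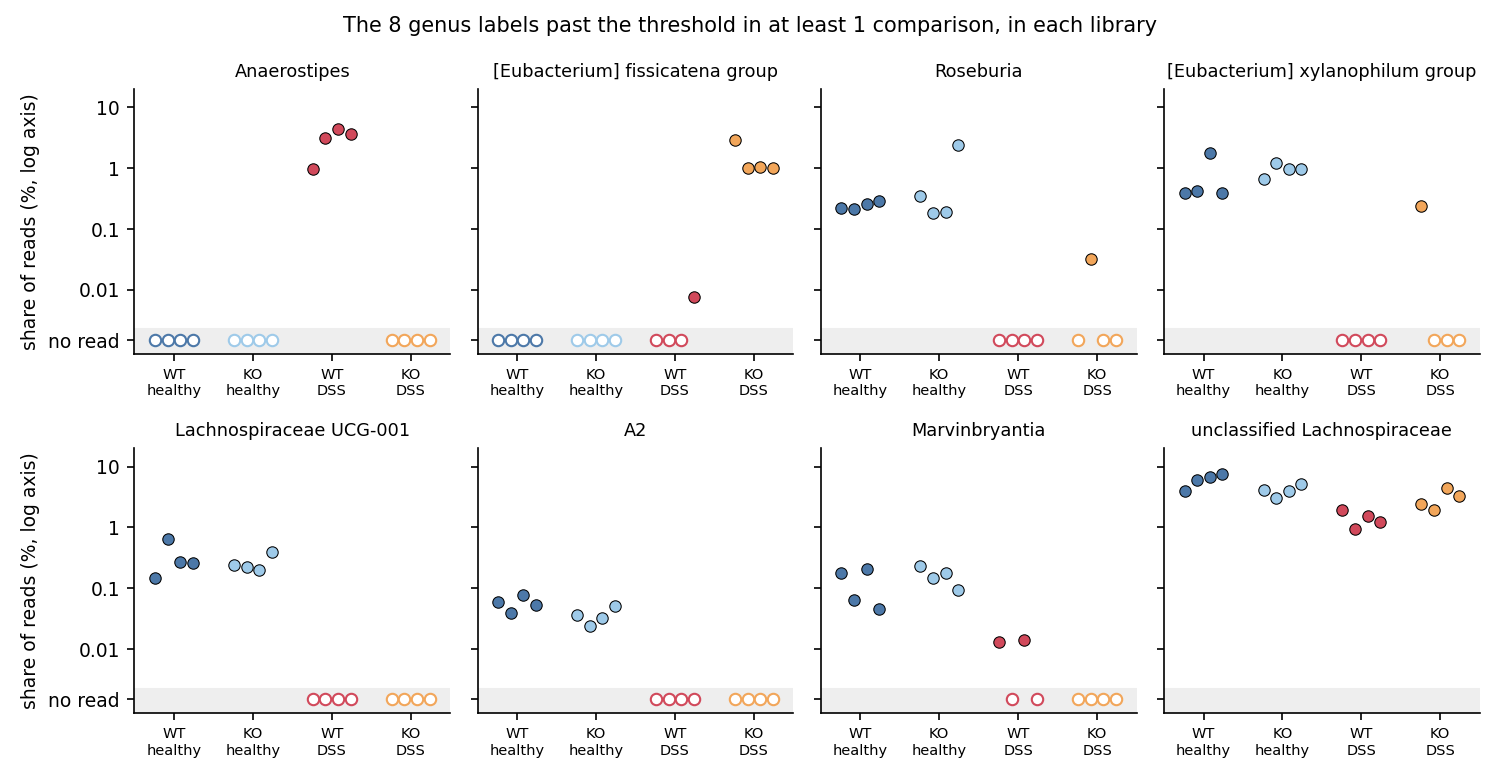
Share of reads (percent, log axis) of the 8 genus labels that passed the threshold in at least 1 comparison, with 1 point per library and open points in the grey band for libraries without a read. Anaerostipes is present in the 4 WT DSS libraries and nowhere else, and Lachnospiraceae UCG-001 and A2 are present in the 8 healthy libraries and in no DSS library.

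At the level of single sequences, 21 of 103 ASVs fell and 2 rose in WT mice, where 12.7% of all 308 tested ASVs fell and 4.55% rose. In KO mice 25 fell and 7 rose, where 17.9% of all fell and 11% rose. Of the 19 tested ASVs of the NK4A136 group, 4 fell and 2 rose in WT mice (median log2 change -0.24). In KO mice 7 of those 19 fell and 4 rose (median -1.25). The median log2 change over the 103 was -2.19 in WT mice, where that of all 308 was -0.54, and -1.28 in KO mice, where that of all was 0.00. With ASVs that had no read in a group set to their bound, the medians were -1.86 in WT and -1.11 in KO mice, against -0.65 and 0.00 for all. Without WT healthy replicate 2 the calls in WT mice were 15 in place of 23.

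The comparisons in the 2 genotypes contrast different libraries, but all 16 libraries entered 1 fit, so the 2 sets of calls are not independent. Of the ASVs that fell, 18 did so in both, or 85.7% of the 21 in WT mice and 72.0% of the 25 in KO mice. Over all 308 tested ASVs 24 fell in both, or 61.5% of the 39 that fell in WT mice and 43.6% of the 55 in KO mice. The unnamed lineages supplied 14 of the 21 and 16 of the 25, and they were 64 of the 103 tested ASVs (62.1%). asv105, an unnamed ASV, held 0.0351% to 0.381% in the 8 healthy libraries and had no read under DSS (at least 33.2-fold lower in WT and 31.1-fold in KO mice, edgeR adjusted p = 0.00122 and 0.000682). Its healthy WT mean of 0.164% was 0.0919% without replicate 3. asv71 held up to 0.576% in healthy mice, with no read in WT replicate 1, and had none under DSS (edgeR adjusted p = 0.00934 in WT and 0.00694 in KO mice). No ASV passed in opposite directions in the 2 genotypes.

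The ASV that rose in both genotypes was asv44, an unnamed lineage with no read in the 8 healthy libraries. In KO DSS mice it held 1.26%, 0.135%, 1.0% and 1.29%, at least 169-fold above healthy KO mice (edgeR adjusted p = 0.00694). In WT DSS mice it held 0.0909% and 0.0256% in replicates 0 and 1 and had no read in the others. The WT call (at least 5.74-fold, edgeR adjusted p = 0.0392) rests on those libraries and was lost in 9 of 16 fits that left out 1 library, with edgeR adjusted p up to 0.0847.

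The most abundant of these sequences, asv17, did not pass in any comparison. It held 1.40%, 2.89%, 2.82% and 2.39% in healthy WT mice and 0.261%, 0.279%, 0.336% and 0.473% in healthy KO mice, groups that did not overlap (log2 difference -2.54 ± 1.38, edgeR adjusted p = 0.298). Under DSS it reached at most 0.558% and was absent from replicate 0 of both genotypes.

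KO was compared with WT in healthy mice. None of the 19 labels passed edgeR's threshold, where 6.06% of all 66 did. None had an unadjusted edgeR p under 0.05, where 15 of all 66 did. DESeq2 and limma called none either, and without the filter 1 passed. The median log2 difference was -0.36 over the 19 labels and -0.35 over all 66. The unnamed lineages differed by -0.23 ± 0.35 on the log2 scale (edgeR adjusted p = 0.751), a difference whose sign depended on the scaling.

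A few single sequences passed between the healthy genotypes. Of the 103 ASVs, 2 were higher in KO mice and 2 lower, where 3.25% of all were higher and 3.9% lower. Their median log2 difference was -0.05, and that of all 308 was -0.14. asv110, an unnamed lineage, held 0.247%, 0.122%, 0.121% and 0.200% in healthy KO mice and had no read in healthy WT mice, at least 34.0-fold apart (edgeR adjusted p = 0.00153). asv433, also unnamed, held 0.0121% to 0.0288% in healthy KO mice alone (at least 3.66-fold, edgeR adjusted p = 0.0418). It passed the filter through those 4 libraries only, so that it had to differ, and its call was lost without the filter (0.526), with total counts (0.0524) and with a replicate block (0.295). asv206, labelled ASF356, held 0.0201%, 0.0162%, 0.0529% and 0.0377% in healthy WT mice and no read in healthy KO mice (at least 5.81-fold, edgeR adjusted p = 0.0404). asv256, labelled GCA-900066575, was in 3 of 4 healthy WT libraries and no healthy KO library (at least 5.52-fold, edgeR adjusted p = 0.0418). Of these 4, the call of asv110 alone stood with any 1 library left out. As asv110 passed the filter through KO libraries alone, this stability is no separate support. The calls numbered 1 or 2 without any 1 of 8 libraries (WT healthy replicates 0 to 2, KO healthy replicates 0 to 3 and KO DSS replicate 2).

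KO was also compared with WT under DSS. Of the 19 labels, 2 were higher and 2 lower in KO mice, where 9.09% of all labels were higher and 4.55% lower. The median log2 difference was 0.06 over the 19 and 0.01 over all 66. Anaerostipes was at least 611-fold lower in KO mice (edgeR adjusted p = 0.000609). The [Eubacterium]_fissicatena_group was higher by 9.16 ± 1.43 on the log2 scale (edgeR adjusted p = 0.00224). Both calls stood under every alternative and without any 1 library. Each taxon was brought past the filter by the libraries of the group where it was high, so this stability is no separate support. The other calls rest on few libraries: the [Eubacterium]_xylanophilum_group (edgeR adjusted p = 0.0402) on KO DSS replicate 0 alone, without which its log2 difference is 0.00, and Marvinbryantia (0.0399) on WT DSS replicates 0 and 2. Each of those was lost in 11 of 16 fits that left out 1 library, and the number of labels called was 2 without any of WT healthy replicate 1, KO healthy replicates 0, 1 and 2, and WT DSS replicates 0 and 2.

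The unnamed lineages had means of 3.01% in KO and 1.40% in WT DSS mice, and their log2 difference of 0.81 ± 0.35 did not pass (edgeR adjusted p = 0.154). It did with total counts only (0.0388), without ASVs of 1 library (0.0478) and with DESeq2 (DESeq2 adjusted p = 0.0294). Of the 5 tested labels listed as butyrate formers outside the family, Anaerotruncus alone passed, higher in KO DSS mice at 0.134% against 0.00600% (edgeR adjusted p = 0.0181). Its mean was also higher in healthy KO than healthy WT mice, at 0.135% against 0.0304%, without passing (edgeR adjusted p = 0.169). The others did not pass under DSS. On the log2 scale Intestinimonas (-2.75) and Butyricicoccus (-1.70) were lower in KO mice, and Oscillibacter (0.33) and UCG-009 (1.17) higher.

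Of the 103 ASVs, 6 were higher and 5 lower in KO mice under DSS, where 8.77% of all were higher and 6.17% lower. asv110 again separated the genotypes, with 0.0524%, 0.147%, 0.263% and 0.0727% in KO DSS mice and no read in WT DSS mice (at least 27.1-fold, edgeR adjusted p = 0.00153). It was thus in all 8 KO libraries and in no WT library. The label GCA-900066575 held sequences of both kinds. asv256 was in 7 of 8 WT libraries and in no KO library (at least 7.05-fold lower in KO mice under DSS, edgeR adjusted p = 0.0203), a call lost with a replicate block (0.0718) and without the filter (0.0763). asv171 held 0.0538%, 0.130%, 0.0343% and 0.281% in KO DSS mice and no read in any WT library (at least 25.2-fold, edgeR adjusted p = 0.0214). Its KO DSS mean of 0.125% was 0.0728% without replicate 3.

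asv335, labelled Lachnospiraceae_UCG-006, was in 7 of 8 WT libraries and in no KO library, at 0.0358% or less (edgeR adjusted p = 0.0235 under DSS). It lost its call without KO DSS replicate 1 or 2 (edgeR adjusted p = 0.0506 and 0.0509). asv252, unnamed, was in WT DSS replicates 0, 2 and 3 and absent from KO DSS mice (edgeR adjusted p = 0.0264), and lost its call without any of 4 libraries (WT DSS replicate 0, KO DSS replicates 1 to 3, up to 0.0570). Without KO DSS replicates 1, 2 and 3 in turn the calls were 5, 6 and 7 in place of 11.

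**Figure D4:**
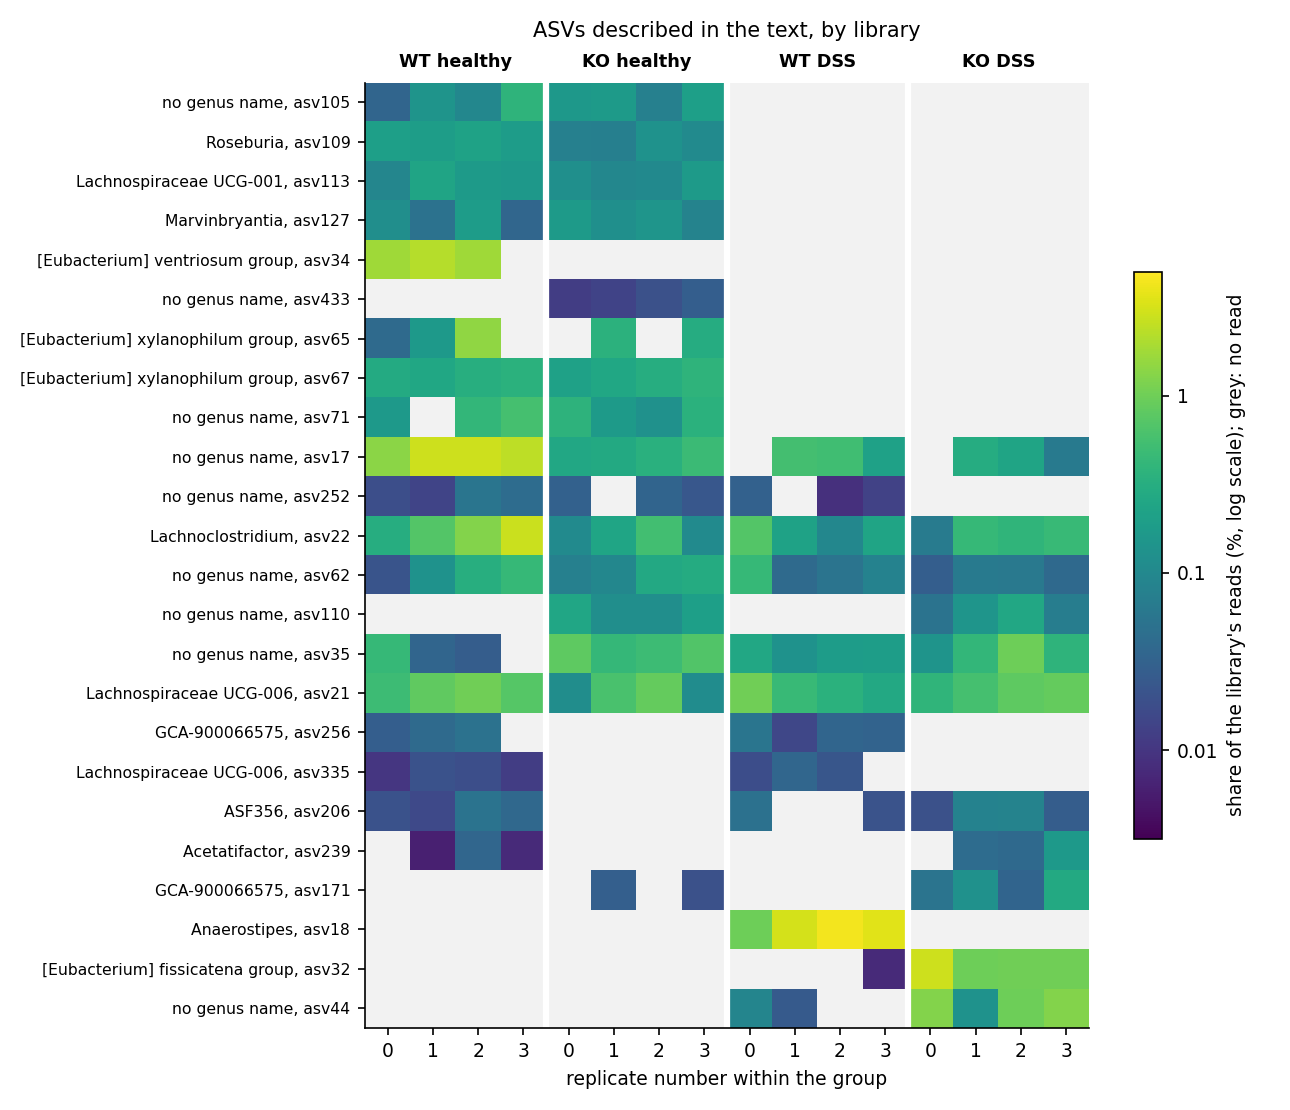
Share of reads (percent, log colour scale, grey for no read) of the 24 ASVs chosen by the naming rule, with 1 row per ASV ordered by how far its mean share lay on the healthy side and 1 column per library. The upper rows are filled in healthy libraries and empty under DSS, asv110 is filled in all KO libraries only, and asv18 and asv32 fill the WT DSS and KO DSS columns.

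The interaction asks whether the KO against WT difference under DSS departs from that in healthy mice. None of the 19 labels passed edgeR's threshold, where 4.55% of all 66 did. Of the 19, 3 had an unadjusted edgeR p under 0.05, as did 11 of all 66. DESeq2 called 5 of the 19 and limma 2, with no count over all labels to set beside them. For Anaerostipes, with reads in 1 of 4 groups, the edgeR standard error of the interaction was 25425 on the log2 scale, so that its large difference under DSS could not be set against the absence in healthy mice by this term. The unnamed lineages had an interaction of 1.04 ± 0.50 (edgeR adjusted p = 0.242).

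Of the ASVs, 2 of 103 passed for the interaction, both positive, where 5.52% of all 308 passed. asv206 had no read in healthy KO mice and held 0.0198%, 0.0840%, 0.0848% and 0.0281% in KO DSS mice, while WT mice had it in 4 of 4 healthy and 2 of 4 DSS libraries (log2 interaction 8.59 ± 2.18, edgeR adjusted p = 0.0468). asv239, labelled Acetatifactor with a confidence of 0.708, was in 3 healthy WT and 3 KO DSS libraries and in none of the other groups (13.93 ± 3.19, edgeR adjusted p = 0.0468). These fitted sizes depend on how groups without a read are treated. asv206 lost its call without any 1 of the 16 libraries (edgeR adjusted p 0.0631 to 0.0936) and asv239 in 15 of 16 such fits (up to 0.0862).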

How the data were processed

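Stool DNA was extracted with a DNeasy PowerSoil Pro kit and amplicons were read on a MiSeq, per the labels' protocols. The submitters' processing notes name cutadapt. The denoiser, classifier and database are not given in the sources used here. Values are the authors' read counts per ASV and library, as deposited, and the deposited taxonomy table gives each assignment's confidence as a fraction (median 0.984 for the taxa described, 53 of 202 under 0.9). No further column of per-sample values was present (0 unused). Amplicon reads are not independent molecules, so intervals and limits cover counting error only.

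Counts were summed by genus label. All 16 libraries entered 1 quasi-likelihood fit per level (edgeR 4.0.16, R 4.3.3, TMM factors, Benjamini-Hochberg adjustment over all labels or ASVs tested), after a filter of 5 reads in 4 libraries and a check on simulated data. Shares and numbers of ASVs were described without a test, with pandas 2.3.3 under Python 3.11.15. Fitted values of a taxon with no read in a group depend on edgeR's prior count.

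The members, the lists of taxa and the tests were chosen with earlier results of these data known. Each tested label is named. Named ASVs are the 10 with most reads and, per comparison and direction, up to 4 with a call and the largest change, if seen in 3 or 4 libraries of the group where they were higher. Alternatives were TMMwsp factors, total counts only, no filter, 20 reads, labels from a confidence of 0.9, no ASVs of 1 library, only the groups compared, a replicate block, DESeq2 1.42.0, limma 3.58.1 on centred log-ratios (pseudocount 0.5), and each library left out.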

Additional observations from a re-analysis of the deposited data

Results flagged for a closer look

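In groups of 4 libraries, a value was singled out where its gap to the nearest of the others was, relative to the group's range, above Dixon's critical value. Of 105 groups looked at, 20 gave such a value. A chance rate of about 1 in 20 groups would hold for independent, normally distributed values, which these shares are not. A library that alone had reads was always singled out, and a label of 1 ASV was counted again with that ASV. The 20 are thus not set against that rate. The part of these values in the results was not tested beyond the leave-one-out values given above.

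WT DSS replicate 0 stood apart for ASF356 (0.187%, the others at most 0.0557%), GCA-900066575 (0.165%, at most 0.0410%), Tyzzerella (0.0198%, the others without a read), asv62 (0.437%, at most 0.0827%) and the NK4A136 group (5.95%, at most 2.89%). KO DSS replicate 0 stood apart for the [Eubacterium]_fissicatena_group and its asv32 (2.88%, the others 0.989% to 1.03%), for the [Eubacterium]_xylanophilum_group (0.239%, the others without a read), and for Lachnoclostridium and its asv22 (0.0680%, the others at least 0.393%).

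KO DSS replicate 1 had 26.2% of the NK4A136 group (the others at most 7.57%) and 0.0326% of Roseburia, of which the other KO DSS libraries had no read. KO DSS replicate 3 had 0.435% of Tyzzerella and was the only one of its group with reads of it. WT DSS replicate 3 was the only one of its group with reads of the [Eubacterium]_fissicatena_group and asv32 (0.00752%).

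Among healthy libraries, KO replicate 3 had 2.40% of Roseburia (the others at most 0.353%) and KO replicate 0 had 0.0207% of Tuzzerella (the others at least 0.0479%). WT replicate 2 had 1.81% of the [Eubacterium]_xylanophilum_group (the others at most 0.424%) and 1.48% of asv65 (at most 0.166%), and WT replicate 0 had 0.446% of asv35 (at most 0.0345%).

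The DSS effect differed between genotypes by the interaction term for asv206 (log2 8.59, edgeR adjusted p = 0.0468) and asv239 (log2 13.93, edgeR adjusted p = 0.0468). Both lost the call when single libraries were left out.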

How the results depend on the processing

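Of 16 label calls, 10 kept their side of the threshold under every alternative and every library left out, and of 34 calls of named ASVs, 20 did. The summed shares moved by less than 1 SD without ASVs of 1 library and with any 1 library left out, and no other alternative was applied to them. Their leave-one-out means were 11.4% to 13.5% in healthy WT, 6.72% to 8.07% in healthy KO, 5.47% to 5.95% in WT DSS and 5.86% to 6.84% in KO DSS mice. Leaving out single libraries gave 0 label calls for KO against WT in healthy mice, 2 to 4 under DSS, 6 to 8 for DSS in WT, 5 to 6 in KO mice and 0 to 1 for the interaction. For ASVs it gave 1 to 5, 5 to 13, 15 to 23, 28 to 34 and 0 to 1 in the same order. With a replicate block the ASV calls were 1, 4, 10, 16 and 0, the label calls for KO against WT under DSS were 2, and the block moved no other count by over 1.5 times. No correlation of deviations between same-numbered libraries was over 0.1 (-0.17 to 0.094 over 16). Such values cannot tell whether a number marks the same animal at both time points. Label calls for KO against WT under DSS were 2 with only the groups compared and 2 with limma. In healthy mice 1 label was called without the filter. For the interaction, labels called were 1 with TMMwsp factors, 1 without the filter, 5 with DESeq2 and 2 with limma. ASV calls in healthy mice were 2 with a filter of 20 reads and 13 with limma (8 of them higher in KO), and with total counts 1 of 3 was higher. Under DSS they were 6 with that filter and 7 with only the groups compared, and with limma 12 of 15 were higher. For DSS in WT mice they were 15 with only the groups compared and 35 with limma. ASV calls for the interaction were 0 with TMMwsp factors, 7 with DESeq2 and 13 with limma (10 positive). The sign of the unnamed lineages' KO against WT difference in healthy mice turned with TMMwsp factors (0.073), without ASVs of 1 library (0.0059) and from a confidence of 0.9 (0.48). The interaction of the [Eubacterium]_xylanophilum_group, 7.63, was -0.995 without KO DSS replicate 0 and up to 8.25 without other libraries. Total counts moved the median of all labels for DSS in WT mice by -0.57 on the log2 scale. The causes were not tested. Leaving out ASVs of 1 library was done at label level and on shares.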
